A study of Homo sapiens with 12 samples.

Results

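The genes described here encode receptors with which a plasma cell holds on to, or is drawn to, the bone marrow. They are the integrin subunits ITGA4, ITGB1, ITGAL, ITGB2 and ITGAE, the hyaluronan receptor CD44, the selectin ligand SELPLG, the chemokine receptor CXCR4, and the counter-receptors ICAM1 and ICAM3. The 10 genes were chosen by symbol from the 59276 features of the deposited table, and all 10 had a row. RNA-seq was performed on total RNA of MM1S, an established multiple myeloma cell line that serves as a model of malignant plasma cells grown apart from marrow stroma. The 4 groups held 3 libraries each: untreated cells (day 0), and cells harvested on day 2, day 3 or day 5 of treatment. NGI-1, used at 10 μM, blocks the oligosaccharyltransferase (OST) complex, the enzyme that attaches N-glycans to proteins in the endoplasmic reticulum. The labels list NGI-1 for the day 0 libraries as well, which were taken as untreated because the study calls them controls. The labels give these libraries a time point of 0 days. They do not settle the use of DMSO or whether these cells were harvested alongside treated ones. No untreated library is labelled day 2, 3 or 5, so NGI-1 and time in culture cannot be told apart. The labels do not say that libraries of a group came from separate cultures, so p-values measure the spread between these libraries.

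Integrins are paired receptors of 1 alpha and 1 beta subunit. ITGA4 joins ITGB1 to form VLA-4, which binds VCAM1 and fibronectin, and can also join ITGB7. ITGAL joins ITGB2 to form LFA-1, which binds ICAM proteins, and ITGAE joins ITGB7 to bind E-cadherin. CXCR4 is the receptor for CXCL12, a chemokine secreted by marrow stroma that holds plasma cells in their niche and raises the affinity of VLA-4 for its ligands. CD44 binds hyaluronan, and SELPLG (PSGL-1) carries the sugars that selectins recognise on blood vessels. Most of these proteins are N-glycosylated, but only RNA was measured here, not protein, glycans or adhesion.

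Values are given in TPM, transcript levels corrected for transcript length and library total, which lets genes be compared with each other, and changes are given on the log2(TPM + 1) scale, which understates the change of genes near 0. A gene was called changed when limma gave a Benjamini-Hochberg adjusted p under 0.05 and a log2 change over 0.5 in size. Of the 10 genes, 9 passed the filter of at least 1 TPM in at least 3 libraries, as did 11939 features in all, and ITGB2 did not. The comparisons of days 2, 3 and 5 with untreated cells share the same 3 untreated libraries. The median log2 change of all tested features was -0.18 at day 2, -0.73 at day 3 and -0.99 at day 5. Each change is therefore also given on a rescaled scale, on which every library was divided by the factor that set its median over 5433 abundant features to a shared level. The factor was 1.49 to 1.51 in untreated libraries. It was 1.26 to 1.30 in those of day 2, 0.768 to 0.891 in those of day 3 and 0.573 to 0.739 in those of day 5. The second library of day 3 and the third of day 5 had the factors nearest the neighbouring group, and without this pair of libraries each of the 5 comparisons had as many of these genes called in each direction on the deposited scale. In a bulk measurement, fewer cells that express a gene and less of its RNA per cell cannot be told apart.

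All 8 plasma cell markers checked were at 1 TPM or more in every library, and their sum was 11850 to 13980 TPM in untreated libraries, and in treated ones 18700 to 21920 (day 2), 25190 to 28120 (day 3) and 19720 to 20950 (day 5). Most of this sum was JCHAIN, the joining chain of secreted antibodies, at 8732 to 10730 TPM in untreated libraries and 21850 to 24870 at day 3. TNFRSF17 (BCMA) was also above its untreated range at day 5, PRDM1 overlapped it, and the other 5 markers (XBP1, SDC1, MZB1, CD38 and IRF4) were below it in all 3 day 5 libraries, as with XBP1 at 1451 to 1597 and 301 to 448 TPM. Endothelial markers summed to at most 0.0234 TPM and stromal markers to at most 0.448 TPM, and erythroid and platelet markers to between 0.329 and 1.37 TPM. Of the 6 T cell markers only CD3E passed 1 TPM, with list sums of 2.86 to 3.42 TPM in untreated libraries, 5.59 to 7.20 at day 2, 5.10 to 7.23 at day 3 and 3.52 to 4.76 at day 5, and CD3D was listed at 0 in every library. Of the 6 monocyte markers only CD68 passed 1 TPM, the list sums were 5.44 to 5.93 TPM in untreated libraries, 4.83 to 7.82 by day 2, 1.62 to 2.80 by day 3 and 0.497 to 0.701 by day 5, and FCGR3A was listed at 0 in every library. The part of these markers in the results below was not tested.

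In untreated cells the levels spanned from abundant to nearly absent. CD44 was highest with 344 ± 14.8 TPM (SD, n = 3), above 97.1% of the tested features, and ITGA4 followed with 259 ± 7.19 TPM, above 96.3%. SELPLG (73.9 ± 5.01 TPM) and ITGB1 (64.2 ± 4.84 TPM) overlapped between libraries, as did ITGAE (30.1 ± 4.80 TPM) and ICAM1 (29.6 ± 1.16 TPM). ITGAL had a lower mean of 26.7 ± 1.31 TPM, and its libraries overlapped those of ITGAE but not those of ICAM1. Below came CXCR4 with 17.4 ± 0.559 TPM, above 60.1% of the tested features, and ICAM3 with 4.25 ± 0.282 TPM. ITGB2 was last with 0.0577 ± 0.0907 TPM. CD44, ITGA4, SELPLG and ITGB1 were in this order of means in all 4 groups, and CXCR4, ICAM3 and ITGB2 came last in all 4. At day 5, however, the ranges of CXCR4 and ICAM3 overlapped, as CXCR4 had dropped to 3.69 ± 0.832 TPM and ICAM3 stood at 3.00 ± 0.277 TPM.

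**Figure D1:**
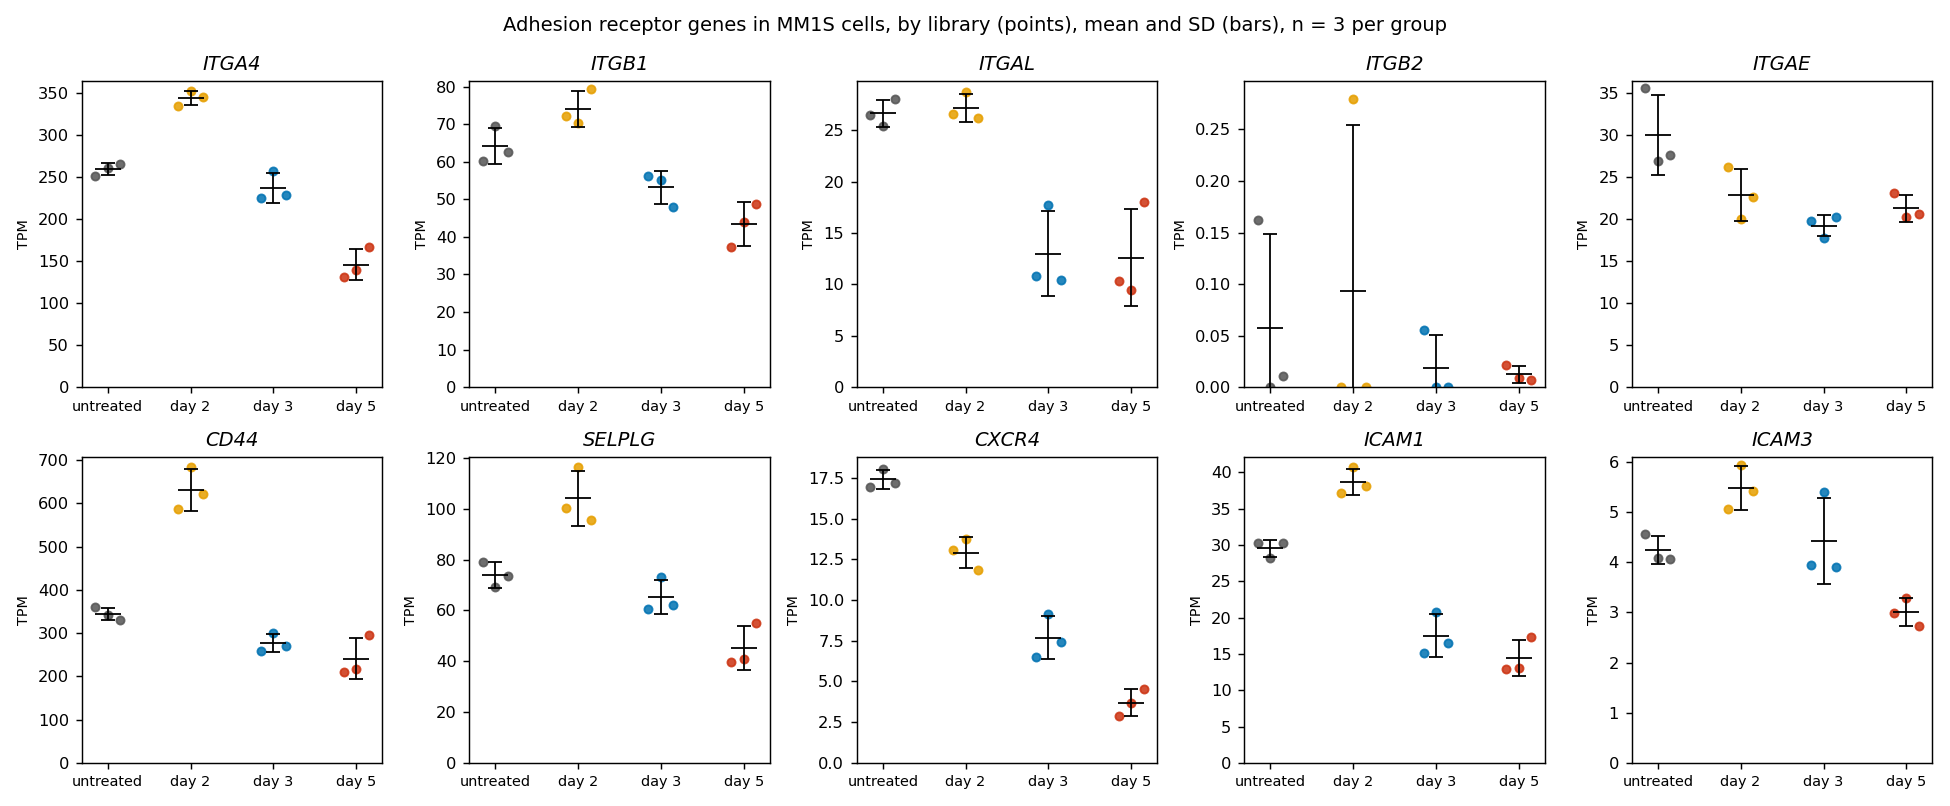
Level of each of the 10 genes in TPM (vertical axes from 0, a separate scale for each gene) in the 3 libraries of untreated cells and of cells after 2, 3 and 5 days in NGI-1; points are libraries, the long bar is the mean and the short bars the SD. CD44 peaked at day 2 between 586 and 683 TPM, while CXCR4 was lower on each later day and reached 2.85 to 4.52 TPM at day 5.

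After 2 days in NGI-1, CD44 was the 1 gene of the 9 called higher on the deposited scale and none was called lower, where 8.04% of all tested features were called higher and 23.2% lower. The median change of the 9 genes was 0.30 and that of all features -0.18. Rescaling gave 4 called higher (CD44, SELPLG, ITGA4 and ICAM1) and none lower, against 12.9% and 11.4% of all features. In TPM, 6 of the 9 genes had every day 2 library above every untreated library (ITGA4, ITGB1, CD44, SELPLG, ICAM1 and ICAM3), ITGAE and CXCR4 had every library below, and ITGAL overlapped.

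After 3 days, 4 genes were called lower on the deposited scale (ITGAL, ITGAE, CXCR4 and ICAM1) and none higher, where 61.5% of all features were called lower and 7.59% higher. The median change was -0.32 for the 9 genes and -0.73 for all features. After rescaling none was called lower and 5 were called higher (ITGA4, ITGB1, CD44, SELPLG and ICAM3), against 24.2% and 23.9% of all features. After 5 days, 7 of the 9 were called lower on the deposited scale and none higher, where 69.8% of all features were called lower and 7.73% higher, a share not far from that of the 9 genes. The median change at day 5 was -0.71 for the 9 genes and -0.99 for all features. After rescaling, CXCR4 alone was called lower and 4 were called higher (ITGB1, ITGAE, CD44 and ICAM3), against 26.9% and 27.5% of all features.

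Between neighbouring days, 6 of the 9 genes were called lower at day 3 than at day 2 and none higher, where 55.5% of all features were called lower and 3.22% higher, so again the share of the set was near the background. With rescaling, 2 of these were still called lower, CD44 and ICAM1, and none higher, against 13.6% and 14.3% of all features. The step from day 3 to day 5 had 3 genes called lower (ITGA4, SELPLG and CXCR4) and none higher, where 13.1% of all features were called lower and 0.67% higher. With rescaling, CXCR4 was the 1 gene called lower and none was called higher, against 2.03% and 4.43% of all features.

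**Figure D2:**
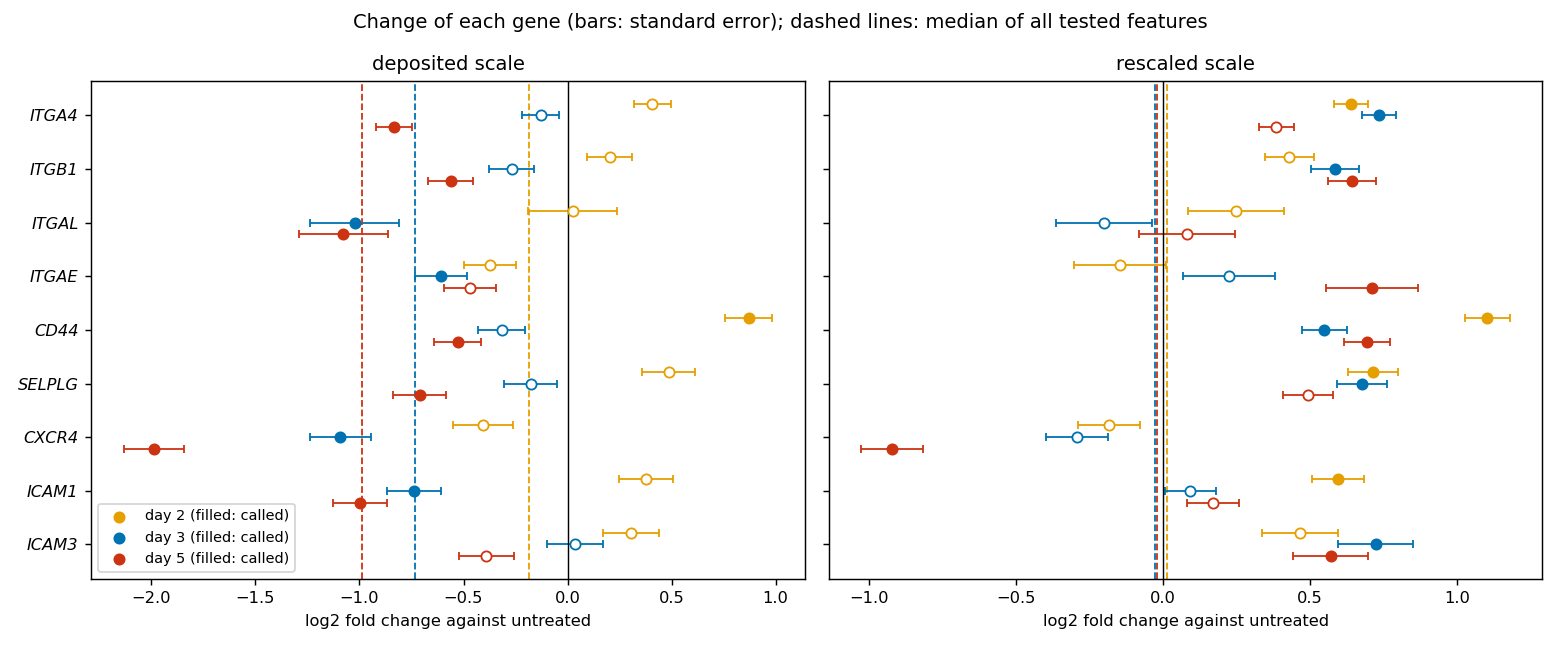
Change of the 9 tested genes against untreated cells in log2(TPM + 1) units, on the deposited scale (left) and the rescaled scale (right), at day 2, 3 and 5; points are limma estimates from 3 libraries a group, bars are standard errors, filled points are called and dashed lines mark the median of all tested features. CXCR4 lies left of the median line at each day and reaches -0.92 at day 5 on the rescaled scale, where the other 8 genes lie right of 0, whereas all 9 lie left of 0 at day 5 on the deposited scale.

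Both VLA-4 chains were above untreated levels in every day 2 library and below them in every day 5 library, in TPM. ITGA4, the alpha 4 chain (chr2:181457202-181536187, plus strand, GRCh38), was listed at 251, 261 and 265 TPM in untreated libraries, against 335, 352 and 345 (day 2), 225, 257 and 229 (day 3) and 131, 139 and 166 (day 5) in treated ones. The highest values were those of day 2 and the lowest those of day 5, whereas day 3 overlapped the untreated libraries. The change of 0.41 ± 0.09 (SE) at day 2 had a limma adjusted p of 0.0021 but stayed under the size threshold, and that of -0.83 ± 0.09 at day 5 was called (adjusted p = 7.3e-07). Relative to other genes ITGA4 was not lower: on the rescaled scale the changes were 0.64 at day 2 and 0.73 at day 3, both called, and 0.39 at day 5, under the size threshold. ITGB1, the beta 1 chain (chr10:32900319-33005792, minus strand), was listed at 60.3, 69.6 and 62.7 TPM before treatment, then 72.2, 70.4 and 79.4 after 2 days, 56.2, 55.3 and 48.1 after 3 days and 37.3, 43.99 and 48.9 after 5 days. The lowest day 2 library was less than 1 TPM above the highest untreated one, and day 5 was below the untreated libraries but overlapped day 3. ITGB1 was called lower at day 5 on the deposited scale (-0.56 ± 0.11, adjusted p = 2.6e-04), a call that was lost without the first day 5 library (-0.46), and was called higher on the rescaled scale (0.64 ± 0.08, adjusted p = 1.3e-05).

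ITGB7, the other partner of ITGA4 and the partner of ITGAE, was far more abundant than ITGB1. Its levels were 986, 952 and 983 TPM in untreated libraries, 1424, 1529 and 1350 on day 2, 550, 681 and 545 on day 3, and 259, 292 and 366 on day 5, with no overlap between untreated and treated groups on any day. Its log2 change was 0.56 at day 2 and called higher, and -0.73 at day 3 and -1.68 at day 5, both called lower. Its rescaled change was 0.79 at day 2 and called, 0.14 at day 3 and -0.46 at day 5, the last with every library below the untreated ones but under the size threshold. ZNF740, a zinc finger gene that overlaps ITGB7, had means of 10.2 TPM in untreated libraries and 4.68 TPM at day 5.

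Ratios of paired genes within a library do not depend on how the libraries were scaled. The mean ratio of ITGA4 to ITGB1 was 4.05 ± 0.27 (SD, n = 3) in untreated libraries, and 4.66 ± 0.33 on day 2, 4.47 ± 0.41 on day 3 and 3.36 ± 0.18 on day 5. Its day 5 values, 3.16 to 3.53, were all below the untreated values of 3.74 to 4.24. The ratio of ITGA4 to ITGB7 was 0.266 ± 0.010 in untreated libraries, 0.240 ± 0.014 at day 2, 0.403 ± 0.022 at day 3 and 0.479 ± 0.027 at day 5, so that all 6 libraries of days 3 and 5 lay above the untreated ones. Over the 9 treated against the 3 untreated libraries, the log2 difference was 0.03 for ITGA4 to ITGB1 (exact two-sided permutation p = 0.86, adjusted 0.86 over 4 ratios) and 0.43 for ITGA4 to ITGB7 (exact permutation p = 0.16, adjusted 0.33). The smallest p these 220 choices allow is 0.00455. The test pools days on which the ratios moved in opposite directions, and neither difference passed it.

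**Figure D3:**
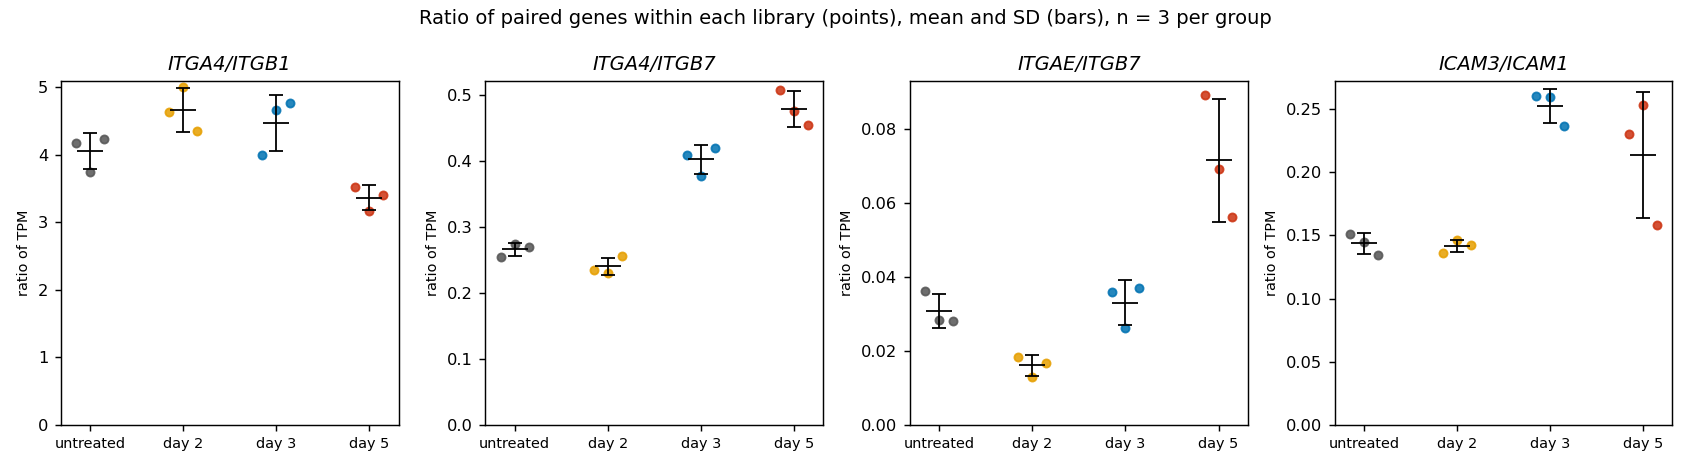
Ratio of TPM values of paired genes within each library (vertical axes from 0) in untreated cells and after 2, 3 and 5 days in NGI-1; points are libraries, long bars means and short bars SD of 3 libraries. The ITGA4 to ITGB7 ratio was 0.255 to 0.274 in untreated libraries and 0.454 to 0.508 at day 5.

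Of the LFA-1 pair, ITGAL was well above the filter and ITGB2 was not. ITGAL, the alpha L chain (chr16:30472658-30523185, plus strand), was listed at 26.5, 25.5 and 28.1 TPM in untreated libraries, against 26.6, 28.8 and 26.2 (day 2), 10.8, 17.8 and 10.4 (day 3) and 10.3, 9.43 and 18.1 (day 5) in treated ones. Day 2 overlapped the untreated libraries, and all libraries of days 3 and 5 were below them, the second of day 3 and the third of day 5 being the highest of their groups. ITGAL was called lower at day 3 (-1.02 ± 0.21, adjusted p = 5.9e-04) and at day 5 (-1.08 ± 0.21, adjusted p = 3.2e-04). Its rescaled changes were 0.25 at day 2, -0.20 at day 3 and 0.08 at day 5, with standard errors of 0.16 and none called, and the day 5 value was -0.10 without the third day 5 library. ITGB2, the beta 2 chain (chr21:44885953-44931989, minus strand), was listed at 0 in 5 of the 12 libraries and reached at most 0.280 TPM in any, so no change or ratio to ITGAL was computed.

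ITGAE, the alpha E chain (chr17:3714628-3801243, minus strand), was below its untreated level in TPM on each treated day. Its levels were 35.6, 27.0 and 27.6 TPM before treatment, then 26.2, 19.98 and 22.7 after 2 days, 19.7, 17.8 and 20.2 after 3 days and 23.1, 20.2 and 20.6 after 5 days. No treated library reached the untreated range, and the first untreated library was the highest of all. ITGAE was called lower at day 3 (-0.61 ± 0.13, adjusted p = 5.8e-04), but without the first untreated library the change was -0.48 and not called. The day 5 change of -0.47 ± 0.13 was under the size threshold, and on the rescaled scale ITGAE was instead called higher at day 5 (0.71 ± 0.16, adjusted p = 0.0012). The mean ratio of ITGAE to ITGB7 was 0.0308 in untreated libraries, 0.0161 at day 2, 0.0331 at day 3 and 0.0716 at day 5. All day 2 values were below and all day 5 values above the untreated range, and the pooled log2 difference was 0.12 (exact two-sided permutation p = 0.86, adjusted 0.86). The gene HASPIN, a histone kinase, lies on the opposite strand within ITGAE and had means of 9.50 TPM in untreated libraries and 0.159 TPM at day 5. Whether the counting used strand is not stated in the sources used here, and only the spans of whole genes were compared, not their exons. Whether ITGAE and HASPIN, or the overlapping pairs at ITGB7, SELPLG and ICAM3, share reads was not tested.

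CD44 showed the largest rise among these genes at day 2. The gene (chr11:35138870-35232402, plus strand) had levels of 360, 341 and 331 TPM in untreated libraries, 586, 683 and 622 on day 2, 258, 299 and 271 on day 3, and 210, 218 and 295 on day 5. Day 2 stood above all other groups, and the libraries of days 3 and 5 were all below the untreated ones. The day 2 rise of 0.87 ± 0.11 was called (adjusted p = 4.1e-05), and CD44 was then called lower at day 3 than at day 2 (-1.19 ± 0.11, adjusted p = 3.3e-06). Against untreated cells the day 3 change was -0.32 ± 0.11 and not called, and the day 5 change of -0.53 ± 0.11 was called (adjusted p = 6.2e-04) but was under the size threshold without the first untreated, the first day 5 or the second day 5 library (range -0.68 to -0.44 over single libraries left out). Relative to other genes, that is after rescaling, CD44 was called higher on each day, by 1.10 ± 0.08, 0.55 ± 0.08 and 0.69 ± 0.08 at days 2, 3 and 5, and remained called lower at day 3 than at day 2 (-0.55 ± 0.08, adjusted p = 1.1e-04).

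SELPLG (chr12:108622277-108633959, minus strand) was higher at day 2 and lower at day 5 in TPM. Its levels were 79.1, 69.1 and 73.4 TPM in untreated libraries, against 100.2, 116.5 and 95.7 (day 2), 60.7, 73.1 and 62.2 (day 3) and 39.5, 40.8 and 55.2 (day 5) in treated ones. Day 2 was all above the untreated libraries, day 3 overlapped them and day 5 was all below. The day 2 change of 0.49 ± 0.13 had a limma adjusted p of 0.0073 and lay just under the size threshold, passing it when the first untreated, the first day 2 or the third day 2 library was left out. The day 5 change of -0.71 ± 0.13 was called lower (adjusted p = 1.4e-04), whereas on the rescaled scale SELPLG was called higher at day 2 (0.71 ± 0.09) and day 3 (0.68 ± 0.09) and was 0.49 ± 0.09 higher at day 5, under the size threshold. An antisense gene at the same locus, AC007569.1, went from a mean of 4.31 TPM in untreated libraries to 0.485 TPM at day 5.

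ICAM1, a ligand of LFA-1 that inflammatory signals induce (chr19:10270835-10286615, plus strand), was listed at 30.2, 28.2 and 30.3 TPM before treatment, then 37.2, 40.7 and 38.2 after 2 days, 15.2, 20.8 and 16.5 after 3 days and 12.96, 13.01 and 17.3 after 5 days. No treated library overlapped the untreated ones: day 2 was above, days 3 and 5 were below. The changes at day 3 (-0.74 ± 0.13, adjusted p = 1.5e-04) and day 5 (-0.997 ± 0.13, adjusted p = 6.6e-06) were called lower, beside medians of -0.73 and -0.99 over all features. After rescaling ICAM1 was called higher at day 2 (0.60 ± 0.09, adjusted p = 1.5e-04) and was 0.09 ± 0.09 and 0.17 ± 0.09 higher at days 3 and 5, not called. It was also called lower at day 3 than at day 2 on the rescaled scale (-0.50 ± 0.09), a call lost without the second day 2 library (-0.48) or the first day 3 library (-0.42).

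ICAM3, a further LFA-1 ligand, found on resting leukocytes (chr19:10333776-10339823, minus strand), was the lowest of the tested genes. It was listed at 4.57, 4.10 and 4.07 TPM in untreated libraries, 5.07, 5.95 and 5.42 on day 2, 3.94, 5.41 and 3.90 on day 3, and 2.98, 3.29 and 2.74 on day 5. No change on the deposited scale was called (0.30 ± 0.13, 0.04 ± 0.13 and -0.39 ± 0.13 at days 2, 3 and 5), although the day 5 libraries were all below the untreated ones. On the rescaled scale it was called higher at day 3 (0.72 ± 0.13, adjusted p = 2.6e-04) and day 5 (0.57 ± 0.13, adjusted p = 0.0013), and the day 5 change was 0.50 and under the threshold without the second day 5 library. The ratio of ICAM3 to ICAM1 was 0.144 ± 0.009 in untreated libraries, 0.142 ± 0.005 at day 2, 0.252 ± 0.013 at day 3 and 0.214 ± 0.050 at day 5. All 6 libraries of days 3 and 5 were above the untreated ones, and the pooled log2 difference of 0.45 did not pass the test (exact two-sided permutation p = 0.11, adjusted 0.33). An antisense gene at the ICAM3 locus, AC114271.1, had means of 3.66 TPM in untreated libraries and 0.743 TPM at day 5.

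CXCR4 (chr2:136114349-136118165, minus strand) was the gene of this set that fell most by day 5 and the 1 called lower than in untreated cells on both scales. It was listed at 17.0, 18.0 and 17.2 TPM in untreated libraries, against 13.1, 13.7 and 11.9 (day 2), 6.52, 9.12 and 7.44 (day 3) and 2.85, 3.69 and 4.52 (day 5) in treated ones. Each group lay wholly below the group before it. The changes against untreated cells were -0.41 ± 0.14 at day 2 (adjusted p = 0.035, under the size threshold), -1.09 ± 0.14 at day 3 (adjusted p = 1.1e-05) and -1.99 ± 0.14 at day 5 (adjusted p = 1.9e-08). From day 2 to day 3 it fell by 0.69 and from day 3 to day 5 by 0.90, both called, of which the second was also called after rescaling (-0.63) and the first was not (-0.11). On the rescaled scale it was -0.18 ± 0.10 at day 2 and -0.29 ± 0.10 at day 3, neither called, and -0.92 ± 0.10 at day 5 (adjusted p = 4.3e-06). With single libraries left out, the rescaled change at day 5 ranged from -0.97 to -0.84 and was called each time.

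The sequences before the start sites of CD44, ICAM1 and CXCR4 are shown because CD44 and ICAM1 were the genes of the set called lower from day 2 to day 3 on both scales, and CXCR4 was the gene called lower at day 5 on both. Each is the 250 bases before the start in the RefSeq promoter table (GRCh38.p14), written 5′ to 3′ on the strand of the gene; 7 of the 10 genes had an entry, and ITGAL, ITGB2 and SELPLG did not. CXCR4 had several starts in the table, and the most upstream was used. Capitals mark matches, on either strand, to TATAAA (the TATA box), GGGCGG (the GC box of Sp1), CCGGAAG (an ETS core), TGANTCA (an AP-1 core) or GGNNNTTCC (an NF-κB core).
CD44, chr11:35138921-35139170, plus strand: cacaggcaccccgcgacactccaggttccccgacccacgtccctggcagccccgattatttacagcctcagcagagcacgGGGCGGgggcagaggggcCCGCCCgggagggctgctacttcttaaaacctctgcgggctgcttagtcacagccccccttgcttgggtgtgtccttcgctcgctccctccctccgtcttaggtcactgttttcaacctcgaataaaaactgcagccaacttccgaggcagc
ICAM1, chr19:10270870-10271119, plus strand: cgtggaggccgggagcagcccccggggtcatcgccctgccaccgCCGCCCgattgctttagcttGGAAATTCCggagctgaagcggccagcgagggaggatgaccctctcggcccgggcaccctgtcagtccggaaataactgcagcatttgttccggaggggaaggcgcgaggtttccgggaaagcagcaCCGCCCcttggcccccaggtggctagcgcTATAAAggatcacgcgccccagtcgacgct
CXCR4, chr2:136118150-136118399, minus strand: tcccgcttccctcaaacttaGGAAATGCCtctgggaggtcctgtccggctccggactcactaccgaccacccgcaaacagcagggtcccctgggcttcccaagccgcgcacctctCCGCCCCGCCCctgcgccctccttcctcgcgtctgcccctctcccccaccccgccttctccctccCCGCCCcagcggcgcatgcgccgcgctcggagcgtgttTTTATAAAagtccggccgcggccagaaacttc

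A TATA box stood at bases -30 to -25 from the start in ICAM1 and, overlapping a match on the other strand, in CXCR4. A GGNNNTTCC match lay at -186 to -178 in ICAM1 and at -230 to -222 in CXCR4, where it reads on the minus strand of the gene. GC boxes numbered 2 in CD44, 2 in ICAM1 and 3 in CXCR4, the first pair of which overlap by a base, and ITGB1 held 3. ITGA4, ITGAE and ICAM3 held no match to any of the motifs. Over 35116 starts in the table, the same window held TATAAA in 10.7%, GGGCGG in 42.6%, CCGGAAG in 8.52%, TGANTCA in 6.57% and GGNNNTTCC in 17.1%. A match describes letters only, and no binding was measured.

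The lists of related genes are set beside the shares of all tested features called at day 5, which were 69.8% lower and 7.73% higher on the deposited scale and 26.9% lower and 27.5% higher on the rescaled scale. Some list genes passed the filter only through the groups where they were high: FERMT1, GRK3, CXCR3, FUT4, TPST1, ADAM8 and CD99 reached 1 TPM in no day 5 library, and RGS2 and CD74 in no untreated one, so that the filter favoured their calls.

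Among genes of CXCR4 signalling, the ligand CXCL12 was listed at 0 in all 12 libraries, and ACKR3, which also binds CXCL12, was at 0 in 11 and at 0.0072 TPM in the last. Of 15 tested ligands and regulators, 11 were called lower and 4 higher at day 5 on the deposited scale (median change -1.26). Over all features the shares were 69.8% and 7.73%. On the rescaled scale 5 were called lower and 4 higher (median -0.11), against 26.9% and 27.5% of all features. The share lower was near the background on both scales, and the share higher was above it on the deposited scale only. RGS1, which shortens signals from chemokine receptors by switching off their G proteins, rose most. Its levels were 0.540, 1.10 and 0.454 TPM before treatment, then 37.2, 36.2 and 41.5 after 2 days, 57.6, 43.9 and 57.8 after 3 days and 36.1, 34.97 and 36.5 after 5 days, so that treated and untreated libraries were far apart, and 1 untreated library reached the filter's minimum. Its changes were 4.55 ± 0.15, 5.00 ± 0.15 and 4.46 ± 0.15 at days 2, 3 and 5, all called, as they were on the rescaled scale. The others called higher at day 5 on both scales were RGS2, of the same family, GNAI1, an inhibitory G protein subunit, and CD74, a receptor for MIF, all named here after their values were seen. RGS2 (0.551 to 0.622 TPM in untreated libraries) and CD74 (0.121 to 0.201 TPM) were tested only because treated libraries reached 1 TPM, so their calls carry little weight. ARRB2, an arrestin that uncouples and internalises receptors, fell most, by 1.05 at day 2, 1.93 at day 3 and 2.41 at day 5, from a mean of 29.1 TPM in untreated libraries to 4.67 TPM at day 5. Its day 5 change was -1.30 on the rescaled scale and also called. Of the other chemokine receptors, 3 of 15 listed were tested and all were called lower at day 5, 2 of them on the rescaled scale too, against 69.8% and 26.9% of all features. The 2 were CCR1 and CXCR3, and the filter favoured the calls of CXCR3. CCR1, a receptor for inflammatory chemokines, fell most, from 37.1 TPM in untreated libraries to 6.16 TPM at day 5 (-2.44 ± 0.15, and -1.31 ± 0.10 rescaled, both called).

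Among the other integrin subunits, 8 of 21 were tested. At day 5, 4 were called lower and none higher on the deposited scale (median change -1.08), and 3 lower and 2 higher on the rescaled scale (median -0.09). The share lower was under the 69.8% of all features on the deposited scale, and the rescaled shares were near the 26.9% and 27.5% of all features. ITGA8, an alpha chain that pairs with ITGB1, fell most. Its levels were 103, 108 and 102 TPM in untreated libraries, 66.6, 66.3 and 67.2 on day 2, 18.4, 23.9 and 17.2 on day 3, and 5.69, 6.19 and 8.86 on day 5, each group wholly below the one before it. Its day 5 change was -3.76 ± 0.14, and -2.61 ± 0.09 on the rescaled scale, both called. ITGAV and ITGA3 were the 2 called higher on the rescaled scale (1.47 ± 0.10 and 1.28 ± 0.21), with changes of 0.45 and 0.24 on the deposited scale that were not called; both were named after their values were seen.

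Of the genes that promote or restrain integrin activation or link integrins to actin, 20 of 26 were tested. At day 5, 19 were called lower and none higher on the deposited scale (median -1.28), and 7 lower and 3 higher on the rescaled scale (median -0.23), against 69.8% lower, and 26.9% lower and 27.5% higher, of all features. RASSF5 (RAPL), which carries the signal from RAP1 to integrins in lymphocytes, fell most, from 29.1 TPM in untreated libraries to 5.05 TPM at day 5 (-2.34 ± 0.15, and -1.23 ± 0.10 rescaled, both called). FERMT3 (kindlin-3), which binds beta tails in blood cells, was chosen after its values were seen: its change was -2.30 ± 0.12, and -1.11 ± 0.08 rescaled, both called. The 3 called higher on the rescaled scale were RAP1A, RAP1B and VCL, also named after their values were seen. In TPM, RAP1B went from 156, 165 and 171 in untreated libraries to 114, 110 and 116 at day 5. On the ligand side, VCAM1 was listed at 0 in every library, FN1 (fibronectin) was at most 0.856 TPM and CDH1 (E-cadherin) at most 0.104 TPM. Of 14 ligands 4 were tested, 2 were called lower at day 5, against 69.8% of all features, and none was called on the rescaled scale. F11R (JAM-A), a junctional ligand of LFA-1, had the largest fall on the deposited scale (-1.46 ± 0.20) and a rescaled change of -0.42 ± 0.17, not called.

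Of the genes that connect CD44 to the cell cortex or handle hyaluronan, 8 of 12 were tested. All 8 were called lower at day 5 on the deposited scale (median -2.20), against 69.8% of all features, and each lay below the median of all features. On the rescaled scale 6 were called lower and none higher (median -1.13), against 26.9% and 27.5%. HMMR, a hyaluronan-binding protein of the mitotic spindle, fell most. It was listed at 40.2, 46.97 and 41.4 TPM in untreated libraries, against 24.4, 10.7 and 19.7 (day 2), 3.16, 3.50 and 3.06 (day 3) and 1.31, 1.41 and 1.27 (day 5) in treated ones. Its day 5 change was -4.23 ± 0.21, and -3.26 ± 0.21 on the rescaled scale, both called. EZR (ezrin) and MSN (moesin), which tie CD44, SELPLG and ICAM tails to actin and were named after their values were seen, went from 124 to 28.3 TPM and from 132 to 23.8 TPM, and at day 5 were called lower on both scales (-0.91 and -1.27 rescaled). RDX (radixin), of the same family, was also named after its values were seen. It went from 24.75, 25.01 and 28.19 TPM in untreated libraries to 9.53, 10.43 and 12.55 TPM at day 5. RDX was called lower on the deposited scale but was not among the 6 called lower on the rescaled scale.

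Of the enzymes, sugar transporters and helper genes behind the selectin-binding modifications of SELPLG, 11 of 13 were tested. At day 5, 7 were called lower and 3 higher on the deposited scale (median -0.87), and 2 lower and 5 higher on the rescaled scale (median 0.22). Over all features these shares were 69.8% and 7.73%, and 26.9% and 27.5%, so that the share lower on the deposited scale was near the background. ST3GAL6, a sialyltransferase that caps selectin ligands, rose most. It was listed at 503, 571 and 536 TPM before treatment, then 955, 638 and 905 after 2 days, 1405, 1214 and 1403 after 3 days and 1324, 1523 and 1620 after 5 days, all treated libraries being above the untreated ones. Its changes of 0.61 ± 0.13, 1.32 ± 0.13 and 1.47 ± 0.13 at days 2, 3 and 5 were called on the deposited scale and were larger on the rescaled scale (2.69 ± 0.15 at day 5). GMDS, which acts at a step in the making of the GDP-fucose that fucosyltransferases use, fell most (-1.93 ± 0.17 at day 5, and -0.86 ± 0.12 rescaled, both called). FUT7, the leukocyte fucosyltransferase of selectin ligands, was listed at 0 in all libraries, and is named after its values were seen.

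Of the sheddases and their inhibitors, 8 of 12 were tested, 7 were called lower and none higher at day 5 (median -1.26), and 2 were called lower on the rescaled scale (median -0.18), against 69.8% and 26.9% of all features. TIMP2, a metalloprotease inhibitor, fell most (-1.91 ± 0.18, and -0.73 ± 0.12 rescaled, both called). Of the tetraspanins and other contact receptors, 14 of 17 were tested. On the deposited scale 10 were called lower and 1 higher (median -1.17), close to the 69.8% and 7.73% of all features. On the rescaled scale 2 were called lower and 4 higher (median 0.00), against 26.9% and 27.5% of all features, so that the share lower was under the background. ALCAM, an adhesion molecule of the immunoglobulin family, rose most, from 1.85 TPM in untreated libraries to 4.14 TPM at day 5 (0.86 ± 0.14, and 1.75 ± 0.14 rescaled, both called). SDC1 (CD138), the surface proteoglycan by which plasma cells are recognised, had the largest fall, from 496 to 144 TPM (-1.79 ± 0.09, and -0.57 ± 0.06 rescaled, both called).

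**Figure D4:**
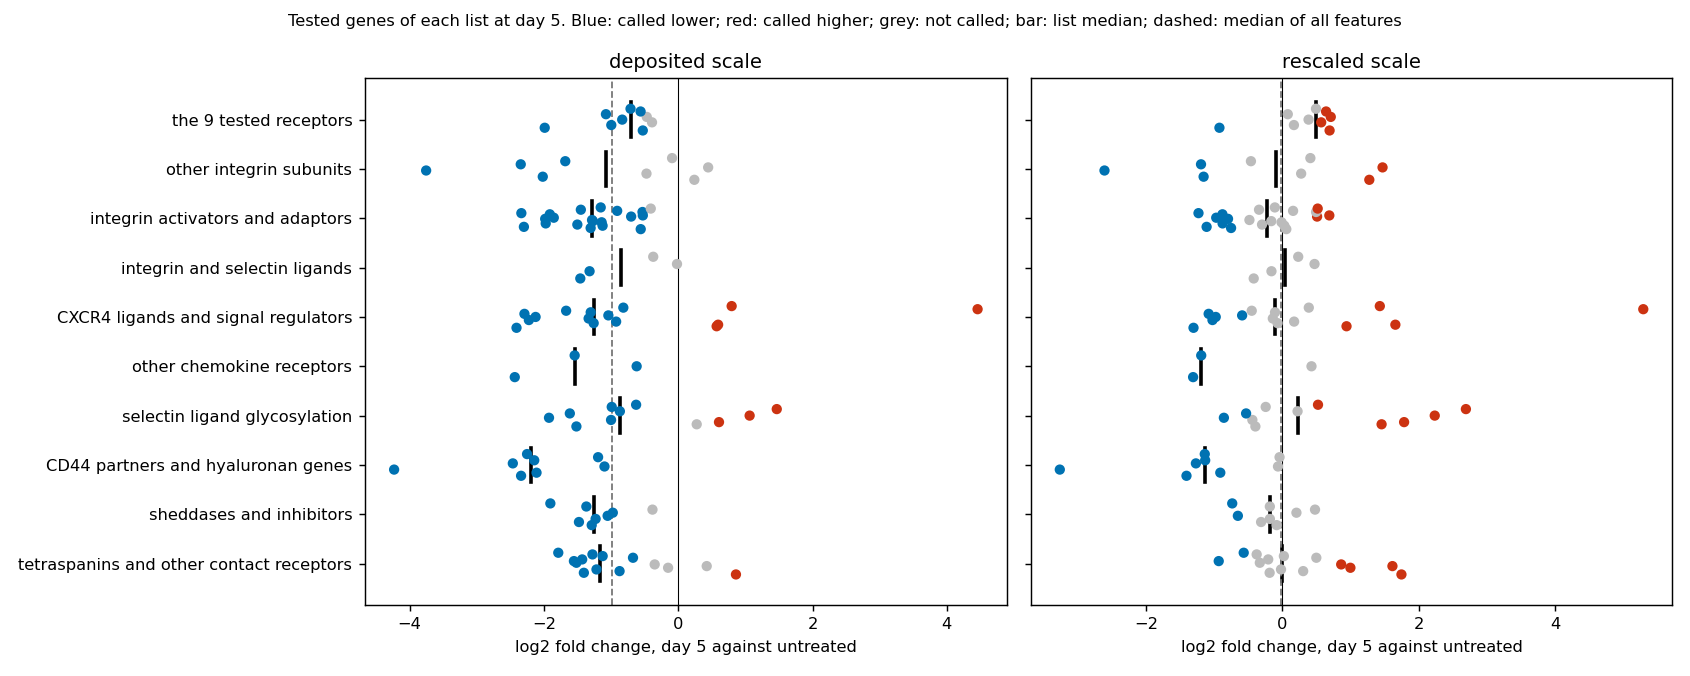
Change at day 5 against untreated cells in log2(TPM + 1) units for each tested gene of the receptor set and of 9 lists of related genes, on the deposited scale (left) and the rescaled scale (right); each point is a gene, blue called lower, red called higher and grey not called, black bars are list medians and dashed lines the median of all tested features. The receptor set has a median of 0.49 on the rescaled scale, and the CD44 partners and hyaluronan genes one of -1.13.

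For each tested receptor gene, the feature with the most similar course was found as that with the highest Pearson r over the 12 libraries on the rescaled scale, among 5433 features with a mean of at least 10 TPM. The libraries form 4 groups and share their scaling factors, so r describes the shared course of group means and was not tested. The partners were IFI16 for ITGA4 (r = 0.98), LMO4 for ITGB1 (r = 0.98), BAZ2A for ITGAL (r = 0.93), MED21 for ITGAE (r = 0.94), RNF122 for CD44 (r = 0.98), NCF1 for SELPLG (r = 0.97), LAX1 for CXCR4 (r = 0.97), RUSF1 for ICAM1 (r = 0.98) and IDH1 for ICAM3 (r = 0.97). NCF1 has near-identical copies in the genome that can share its reads.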

How the data were processed

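Total RNA from MM1S cells was sequenced by the study, with 200 ng of RNA and over 60 M paired-end reads a library per the labels. The authors deposited log2(TPM + 1) values for 59276 features; the submitters' processing notes name FastQC, Trimmomatic, STAR, Salmon and the build hg38, with no versions or order, and the annotation and the use of strand are not given in the sources used here. TPM keeps no counts, so no counting error is given, and precision is read from 3 libraries a group.

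The fit took features that reached 1 TPM in 3 or more libraries and used limma 3.58.1 (R 4.3.3; a mean per group, mean-variance trend, two-sided, Benjamini-Hochberg within a contrast over 11939 features). Calls needed an adjusted p under 0.05 and a log2 change over 0.5. Rescaling used the median log2 ratio over 5433 features with a mean of at least 10 TPM. Ratios of paired genes were compared by exact permutation. The limma fit on the deposited scale was tested on simulated data that had no shift shared by all features. The rescaling and the permutation test were not covered. Gene positions are from GENCODE 29 (GRCh38). Figures used matplotlib 3.10.9 and pandas 2.3.3.

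The genes and lists were chosen with earlier results of these data known. Named genes were all 10 receptors, ITGB7, CXCL12, ACKR3, VCAM1, FN1 and CDH1, from each list the called gene with the largest rise and the largest fall at day 5, and the most similar feature of each receptor; others are marked in the text. The planned ratio of ITGAL to ITGB2 could not be computed because ITGB2 was listed at 0 in several libraries. Alternatives were a log2 threshold of 1, a filter at 5 TPM or none, 0.1 as pseudocount, fits without the trend or with only the pair of groups compared, fits without each library, and values rescaled or recomputed without the 20 most abundant features.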

Additional observations from a re-analysis of the deposited data

Results flagged for a closer look

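Day 2 and day 3 differed in their change against the same untreated libraries for 6 of the receptor genes. The limma test was of the difference itself, that is day 3 against day 2, on the deposited scale. It cannot tell NGI-1 from time in culture. The day 3 change minus the day 2 change was -0.537 for ITGA4, -1.05 for ITGAL and -1.19 for CD44, in log2 units. It was -0.664 for SELPLG, -0.685 for CXCR4 and -1.11 for ICAM1. Of all tested features, 55.5% were called lower in the same way, with a median of -0.57, so that the count is near the share of all features and the value of ITGA4 is no larger than their median. On the rescaled scale the differences for CD44 (-0.55) and ICAM1 (-0.50) were still called, ITGAL (-0.45), CXCR4 (-0.11) and SELPLG (-0.04) were not, and ITGA4 turned to 0.10. Between day 3 and day 5 the changes differed for 3 genes, by -0.705 for ITGA4, -0.534 for SELPLG and -0.897 for CXCR4. Of all features, 13.1% were called lower. After rescaling CXCR4 (-0.63) was still called, and ITGA4 (-0.35) and SELPLG (-0.18) were not. The call of SELPLG was lost without the second day 3 library or without the first or the second of day 5. Groups of 3 libraries are too small for a test of single outlying libraries. The cause of the differences was not tested.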

How the results depend on the processing

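No paired analysis was possible because the labels give no replicate numbers that groups share. Without the filter or the trend, with a filter at 5 TPM, with 0.1 as pseudocount or with fits of only the groups compared, each count of called receptor genes stayed within 1.5 times its value. The rescaled scale changed most: it gave 4 higher at day 2, 5 higher and 0 lower at day 3, 4 higher with 1 lower at day 5, 2 lower from day 2 to 3 and 1 lower from day 3 to 5. Without the 20 most abundant features, 3 were higher at day 2 and 4 lower at day 5. A log2 threshold of 1 left 0 higher at day 2, 2 lower at day 3, 2 lower at day 5, 3 lower from day 2 to 3 and 0 from day 3 to 5.

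Changes that turned positive on the rescaled scale were, at day 2, TIMP2 (0.053); at day 3, CD44 (0.55), ICAM1 (0.093), ITGA4 (0.73), ITGAE (0.22), ITGB1 (0.58), ITGB7 (0.14) and SELPLG (0.68); at day 5, CD44 (0.69), ICAM1 (0.17), ICAM3 (0.57), ITGA4 (0.39), ITGAE (0.71), ITGAL (0.081), ITGB1 (0.64) and SELPLG (0.49). From day 2 to 3 they were ICAM3 (0.26), ITGA4 (0.096), ITGAE (0.37) and ITGB1 (0.15), and from day 3 to 5 CD44 (0.15), ICAM1 (0.078), ITGAL (0.28) and ITGB1 (0.058). Without the 20 most abundant features, ITGA4 (0.12) and SELPLG (0.072) at day 3 and ITGAL from day 3 to 5 (0.011) also turned positive. In each case the cause was not tested.

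Leaving out single libraries gave 1 to 2 higher at day 2, 3 to 4 lower at day 3, 6 to 8 lower at day 5, 6 to 7 lower from day 2 to 3 and 2 to 3 from day 3 to 5. ITGAL at day 2 ranged from -0.014 to 0.062, ICAM3 at day 3 from -0.090 to 0.10, and ITGAL from day 3 to 5 from -0.33 to 0.18. The day 5 fall of SELPLG from day 3 (-0.68 to -0.45) lost its call without the second day 3 or the first or second day 5 library, and ITGAE at day 5 (-0.54 to -0.35) gained one without the second or the third untreated or the first day 5 library. Ratio differences ranged from -0.030 to 0.074 for ITGA4 to ITGB1 and from -0.063 to 0.28 for ITGAE to ITGB7, and day 5 alone gave -0.27 for ITGA4 to ITGB1.

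Chosen after seeing the data, the fits without the second day 3 and the third day 5 libraries turned ICAM3 at day 3 to -0.090. Also chosen after seeing the data, the rescaled fit with single libraries left out gave 4 to 5 higher at day 2, 5 at day 3, 4 to 5 higher with 1 lower at day 5, 1 to 3 lower from day 2 to 3, and 0 to 1 higher and 1 lower from day 3 to 5. There SELPLG from day 2 to 3 ranged from -0.085 to 0.034, ICAM1 from day 3 to 5 from -0.0039 to 0.15, ICAM3 from day 3 to 5 from -0.23 to -0.016, and ITGAL at day 5 from -0.099 to 0.23; without both libraries ITGAL at day 5 was -0.099 and ICAM3 from day 3 to 5 was 0.065.

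TPM values keep no read counts, so a limit of detection cannot be given for the genes listed at 0.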
